A study of Mus musculus with 36 samples.

Results

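XX supporting cells of the fetal mouse gonad were compared between 12.5 and 11.5 days post coitum (dpc), on 6 of the 36 expression arrays of the series. The members are the arrays whose titles give the Sry reporter, the XX sex and either stage, 3 arrays at 11.5 dpc and 3 at 12.5 dpc. Supporting cells are the somatic lineage that forms Sertoli cells in a testis and granulosa cells in an ovary. All 6 samples were cells of the line Tg(Sry-EGFP)92Ei, given as progeny of CD-1, in which a green fluorescent protein is driven by regulatory sequence of Sry, the testis-determining gene. Gonads were pooled by sex, dissociated with trypsin, stained with DAPI and sorted by flow cytometry. The labels name the reporter, and transgene activity in the sorted cells was not measured at either stage. Genotype, line, strain and sex were the same on both sides, and stage was the only labelled difference. For context, 3 XX arrays of the same line at 13.5 dpc and 9 arrays of XY supporting cells entered the same fit. The XY cells at 11.5 dpc carried Tg(Sry-EGFP)92Ei on CD-1, and those at 12.5 and 13.5 dpc carried Tg(Sox9-cre/ERT2)1Msan/J as progeny of C57BL/6, so on the XY side stage, line and strain cannot be told apart.

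Between these stages the XY gonad forms testis cords while the XX gonad keeps a simple form. Without Sry, supporting cells take the pregranulosa course, in which WNT4 and RSPO1 stabilise beta-catenin and the transcription factor FOXL2 comes on. Pregranulosa cells then leave the cell cycle and surround the germ cells. Each value below is a log2 level of a gene on an Affymetrix Mouse Gene 1.0 ST array, in which a difference of 1 is a doubling, and values of a group are given in the order of replicates 1, 2 and 3.

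A gene was counted as higher or lower when limma's adjusted p was under 0.05 over all 19938 genes tested. At 12.5 dpc, 697 genes (3.5% of those tested) differed from 11.5 dpc, with 553 higher (2.77%) and 144 lower (0.722%). The difference was at least 1 on the log2 scale for 197 of the higher and 79 of the lower genes. The 3 arrays of one stage lay wholly above the 3 of the other for 535 of the higher and 143 of the lower genes, against 14.8% of all genes with the 12.5 dpc arrays wholly above and 3.82% with them wholly below. Nearly every called gene thus had separate arrays, and where that is stated below it adds little to the call. The excess of rises depended on the scaling. The median difference of all genes was 0.102 with the deposited values and -0.002 with each array centred on its median, and single differences are to be read against that shift of 0.102. Of the genes called, 79.3% were higher with the deposited values, 63.0% (366 higher, 215 lower) with centred arrays, 52.4% (315 higher, 286 lower) after quantile normalization, and 63.8% (553 higher, 314 lower) when sets of table rows that stood on different scales within an array were aligned. Those row sets lay up to 0.0415 apart in the 11.5 dpc arrays and 0.214 to 0.507 apart in the 12.5 dpc arrays, so the step touched the stages unequally. With the sets aligned 867 genes were called (4.35%), 2.77% higher and 1.57% lower, and these included 436 of the 553 higher and 138 of the 144 lower genes.

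Array medians lay between 6.78 and 6.8 at 11.5 dpc and between 6.74 and 7.01 at 12.5 dpc. Correlations within a stage were 0.99 to 0.991 at 11.5 dpc and lower, 0.978 to 0.983, at 12.5 dpc. The array of replicate 3 at 12.5 dpc had the lowest median, and without it 1222 genes were called. The count was 454 without replicate 1, 491 without replicate 2 and 443 without replicate 3 at 11.5 dpc, and 430 without replicate 1 and 462 without replicate 2 at 12.5 dpc. In all 6 of these fits 206 of the higher and 85 of the lower genes were called. The Y-linked gene Eif2s3y, a translation initiation factor subunit, read 4.48, 4.46 and 4.49 and then 4.5, 4.62 and 4.27 in these XX cells, against 8.82 to 9.34 in the XY arrays of the same stages. Xist, whose RNA silences 1 X chromosome in female cells, read 11.26, 11.27 and 11.19 and then 11.7, 11.14 and 11.11. None of 6 genes of X inactivation and escape and 7 Y-linked genes was called in limma, with 1 and 0 of them at an unadjusted p under 0.05, which 13.5% of all genes had. The probe set of Sry itself read 8.21, 8.16 and 8.12 and then 8.06, 8.25 and 7.74, against a mean of 11.83 in XY cells at 11.5 dpc. Sry was added after its values were seen, and whether its probe set also reads transcripts of the transgene was not tested.

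**Figure D1:**
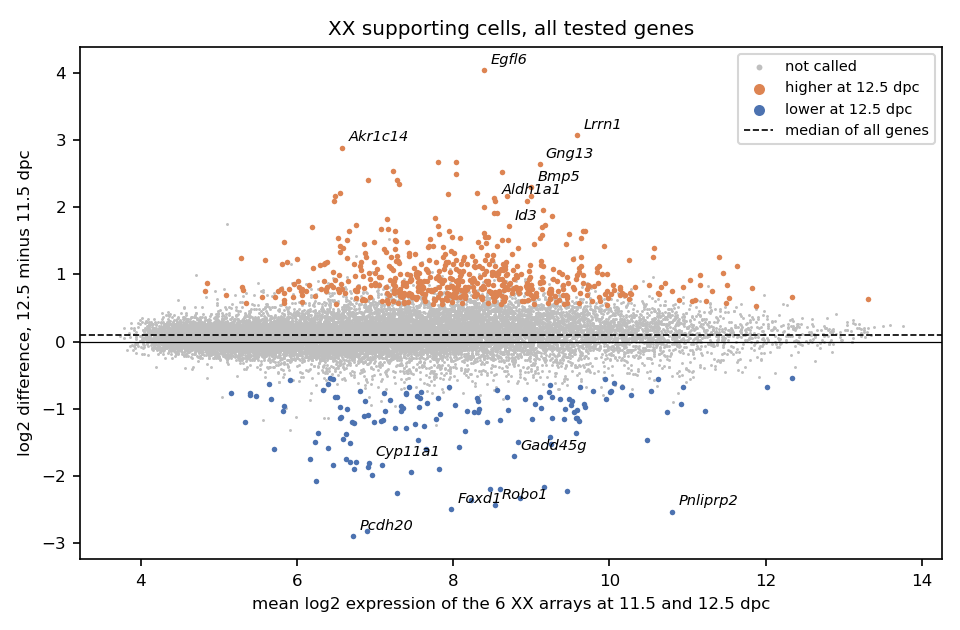
Each point is 1 of 19938 genes, with its mean log2 level over the 6 XX arrays on the horizontal axis and its log2 difference, 12.5 minus 11.5 dpc, on the vertical axis. Orange marks the 553 genes called higher, blue the 144 called lower, and the dashed line is the median of all genes at 0.102; Egfl6 stands highest at 4.04 and Pcdh20 lowest of the labelled genes at -2.89.

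The largest rise was that of Egfl6, which encodes a secreted protein with EGF-like repeats and is X-linked. It read 6.69, 6.43 and 6.03 at 11.5 dpc and 10.44, 10.48 and 10.35 at 12.5 dpc, so the groups stood far apart. The log2 difference was 4.04 (SE 0.17), a 16.5-fold rise with an adjusted p of 5.86e-13. Lrrn1, a leucine-rich repeat membrane protein, read 8.13, 8.08 and 7.95 and then 11.53, 11.01 and 10.85, a difference of 3.07 (SE 0.21, adjusted p 3.47e-09). Akr1c14, a 3-alpha-hydroxysteroid dehydrogenase, read 5.37, 5.13 and 4.9 and then 7.99, 8.03 and 8.06, a difference of 2.89 (SE 0.16, adjusted p 8.5e-11). All 3 genes were chosen among called genes whose arrays did not overlap, so their separation by stage was given by the choice.

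The next rises by size included membrane and signalling genes. Cntn4, a contactin of axonal contact, rose by 2.67, and Gng13, a G protein gamma subunit, by 2.64. Sorbs2, an adaptor of the actin cytoskeleton, rose by 2.54, and Ldb2, a cofactor of LIM-homeodomain factors, by 2.52. Ano1, a calcium-activated chloride channel, rose by 2.5, Pde8b, a cAMP phosphodiesterase, by 2.4, and Calcrl, a receptor subunit for adrenomedullin and CGRP, by 2.4. Adamts19, a secreted metalloprotease, rose by 2.34 and Bmp5, a ligand of the bone morphogenetic protein (BMP) family, by 2.3. These 12 genes were chosen among called genes whose arrays did not overlap between stages, so that their separation is not a finding; they had standard errors of 0.16 to 0.27 and were called in all 6 fits that left out 1 array. Atxn1, the gene of the nuclear protein ataxin-1, had as large a difference as Cntn4, 2.67, but an SE of 0.66 (adjusted p 0.0227). Its arrays overlapped, and its call was lost without replicate 1 or 2 at either stage (2.02 to 2.85, adjusted p 0.0551 to 0.179) and with aligned row sets, centred arrays or quantile normalization. It was added after its values were seen.

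**Figure D2:**
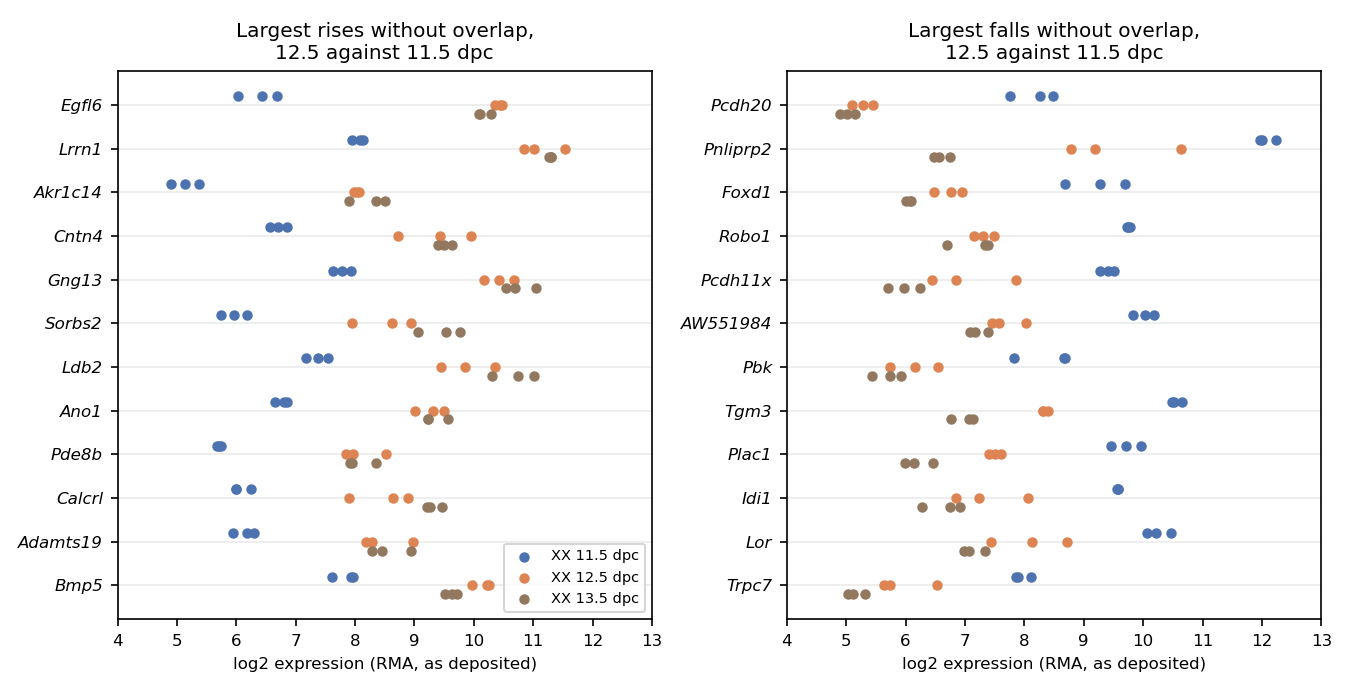
Horizontal axes give the deposited log2 expression, and each point is 1 array of XX supporting cells at 11.5 (blue), 12.5 (orange) or 13.5 dpc (brown). The left panel holds the 12 largest rises and the right panel the 12 largest falls at 12.5 dpc among called genes whose blue and orange points do not overlap, without genes that have only model names; the brown 13.5 dpc means lie within 1 of the orange ones on the left, and on the right more than 1 below them for Pnliprp2, Tgm3, Plac1 and Pcdh11x.

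Among falling genes the steepest was Pcdh20, a protocadherin, at 7.75, 8.48 and 8.26 and then 5.45, 5.1 and 5.28. It fell by 2.89 on the log2 scale (SE 0.25, adjusted p 1.32e-07). A second protocadherin, Pcdh11x, fell by 2.35. Robo1, a receptor of SLIT guidance cues, read 9.75, 9.77 and 9.73 and then 7.49, 7.15 and 7.3, and fell by 2.43 (SE 0.18, adjusted p 1.58e-08). Foxd1, a forkhead transcription factor known from kidney stroma, fell by 2.49. Pnliprp2, a pancreatic-type lipase, read between 11.97 and 12.23 at 11.5 dpc. It stood at 8.78, 9.19 and 10.64 at 12.5 dpc, a fall of 2.53 (SE 0.36, adjusted p 0.0001) in which replicate 3 kept the highest level of its group.

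Other large falls had log2 differences of -2.33 for AW551984, -2.25 for the mitotic kinase gene Pbk, -2.2 for Plac1, -2.19 for the isoprenoid enzyme gene Idi1 and -1.99 for the cation channel gene Trpc7. Tgm3, a transglutaminase, and Lor, its known substrate loricrin in the skin barrier, dropped by 2.22 and 2.16. Tgm3 read 10.52, 10.49 and 10.66 and then 8.4, 8.31 and 8.31, while Lor read 10.47, 10.06 and 10.21 and then 8.12, 8.71 and 7.43. The 12 largest falls were called in all 6 fits that left out 1 array.

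The gene lists were chosen with earlier results of these data known, so their counts are not independent of the data. The pregranulosa list held 20 measured genes, of which 5 rose and 0 fell, and with aligned row sets 5 were higher and 1 lower. Its median difference was 0.37, against 0.102 for all genes. For rises and falls at 12.5 dpc, counts of this list and the later ones are to be read against all genes. Of all genes 2.77% were higher and 0.722% lower. In a list of this size 0 falls is near the latter share. Besides Akr1c14, the members that rose were Gng13, Lgr5, Irx3 and Fst. Gng13 read 7.78, 7.63 and 7.94 and then 10.43, 10.68 and 10.17 (adjusted p 4.21e-09). Lgr5, a receptor for R-spondins, read 7.84, 7.76 and 7.97 and then 9.51, 9.17 and 9.45, a rise of 1.52 (SE 0.2, adjusted p 4.02e-05). Irx3, a homeodomain factor of pregranulosa cells, read 8.32, 7.9 and 8.0 and then 9.71, 8.65 and 9.09, a rise of 1.08 (SE 0.21, adjusted p 0.00358). No array at 12.5 dpc overlapped the 11.5 dpc arrays for either gene. Fst, the activin-binding protein follistatin, was already high at 11.46, 11.45 and 11.36 and rose by 0.8 (SE 0.16, adjusted p 0.00483) to 12.52, 12.18 and 11.98. Lgr5 was higher in XY cells at both stages, with means of 9.22 and 9.87 against 7.86 and 9.38 in XX cells. Its XX minus XY change was not called in limma (0.87, adjusted p 0.0828). The XY means of Akr1c14, Gng13, Irx3 and Fst lay below the XX means at both stages.

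The other well-known pregranulosa genes did not pass the test. Wnt4 stood at 9.8, 9.6 and 9.74 and then 10.14, 9.39 and 10.02, and Rspo1 at 9.59, 10.03 and 9.61 and then 10.42, 10.29 and 9.97. Both groups overlapped, with differences of 0.14 (SE 0.2, adjusted p 0.842) and 0.49 (SE 0.19, adjusted p 0.206). Bmp2 differed by 0.23, Runx1 by 0.02, Irx5 by 0.28, Axin2 by 0.51 and Lef1 by -0.05. Cdkn1b, the cell cycle inhibitor p27, read 11.74, 11.61 and 11.53 and then 12.27, 12.34 and 12.37. Its 12.5 dpc arrays lay wholly above, yet the difference of 0.7 (SE 0.24) had an adjusted p of 0.14, and it passed only in the fit of the 6 arrays alone (also with the row sets aligned) and when its probe sets were averaged.

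Foxl2, the forkhead factor that defines granulosa identity, was read by a dim probe set at 6.27, 6.04 and 6.31 and then 6.24, 6.51 and 6.33. The groups overlapped and the difference was 0.15 (SE 0.16, adjusted p 0.771). XY means at the same stages were 6.15 and 6.61, against XX means of 6.21 and 6.36. How well this probe set reads Foxl2 was not tested. Foxl2os, the divergent neighbour of Foxl2, is a non-coding RNA added after its values were seen. It read 8.94, 8.89 and 8.78 and then 10.46, 10.43 and 10.34, a rise of 1.54 (SE 0.16, adjusted p 2.28e-06). The RefSeq start sites of both genes (GRCm38.p6) lie 297 bases apart on chromosome 9, on opposite strands. The window of 300 bases around the Foxl2 start, chr9:98955357-98955656 on the plus strand, is printed because its first 204 bases, in capitals, also belong to the same window of Foxl2os.
Foxl2: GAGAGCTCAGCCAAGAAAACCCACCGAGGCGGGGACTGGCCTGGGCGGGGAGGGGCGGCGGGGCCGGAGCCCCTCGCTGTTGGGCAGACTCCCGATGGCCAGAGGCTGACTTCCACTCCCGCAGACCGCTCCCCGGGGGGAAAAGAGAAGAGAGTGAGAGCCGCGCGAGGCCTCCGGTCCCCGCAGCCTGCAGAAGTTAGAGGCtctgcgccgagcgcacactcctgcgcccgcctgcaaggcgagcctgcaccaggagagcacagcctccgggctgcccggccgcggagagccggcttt

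BMPs are secreted ligands that act through serine-threonine kinase receptors and SMAD proteins, and the Id genes, which encode inhibitors of helix-loop-helix factors, are textbook targets of that pathway. Of 25 measured BMP genes 4 rose and 0 fell, against 2.77% higher and 0.722% lower among all genes. The list's median was 0.17, against 0.102 for all genes. The ligand gene Bmp5 read 7.62, 7.94 and 7.96 and then 10.25, 10.23 and 9.97, a rise of 2.3 (SE 0.21, adjusted p 2.52e-07). The other ligands did not pass, with Bmp4 at a difference of 0.5, Bmp7 at 0.45 and Bmp2 at 0.23. No receptor, SMAD or antagonist of the list passed; among the receptors Bmpr1a differed by 0.42, Bmpr2 by 0.17, Bmpr1b by 0.14 and Acvr1 by 0.24.

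The other 3 members that rose were Id genes. Id3 read 8.2, 7.43 and 7.91 and then 9.79, 9.59 and 9.32, a rise of 1.72 (SE 0.17, adjusted p 9.2e-07). Id1 read 7.96, 7.75 and 8.46 and then 9.2, 9.32 and 9.14, a rise of 1.16 (SE 0.23, adjusted p 0.00396). Id2 read 7.78, 6.85 and 7.65 and then 8.87, 8.9 and 8.13, a rise of 1.21 (SE 0.25, adjusted p 0.00572). In all 3 genes every 12.5 dpc array lay above every 11.5 dpc array, as in 535 of the 553 genes called higher. The Id2 call was lost without replicate 2 at 11.5 dpc (0.92, adjusted p 0.0517). Id4 had a difference of 0.08 and did not pass.

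Promoter windows of the same length from RefSeq (GRCm38.p6) are shown for the Id genes that rose and had an entry. The letters GGCGCC, a known SMAD-binding sequence that reads the same on both strands, were searched and are in capitals. They occurred in 3898 of 32851 such windows (11.9%), in those of Id2 and Id4 and not in those of Id3 and Bmp5. Id2 lies at chr12:25096043-25096342 on the minus strand and Id3 at chr4:136143572-136143871 on the plus strand. The match is a feature of the letters only and was not read as a site.
Id2: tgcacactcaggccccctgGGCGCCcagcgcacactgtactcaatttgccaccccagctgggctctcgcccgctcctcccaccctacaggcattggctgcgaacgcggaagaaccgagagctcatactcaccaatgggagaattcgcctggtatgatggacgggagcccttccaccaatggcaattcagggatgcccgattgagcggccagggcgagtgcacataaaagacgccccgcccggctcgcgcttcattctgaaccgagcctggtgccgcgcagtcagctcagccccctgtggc
Id3: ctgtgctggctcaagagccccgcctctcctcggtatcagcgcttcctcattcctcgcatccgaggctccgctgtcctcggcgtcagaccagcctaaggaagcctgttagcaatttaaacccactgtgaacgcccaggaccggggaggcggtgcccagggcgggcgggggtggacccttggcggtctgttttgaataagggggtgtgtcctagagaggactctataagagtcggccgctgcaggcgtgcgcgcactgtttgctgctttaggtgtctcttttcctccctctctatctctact

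WNT ligands and R-spondins signal through frizzled and LGR receptors to beta-catenin. Of 36 measured genes 5 rose and 0 fell, with a median of 0.15; with aligned row sets 4 were higher and 1 lower. Lgr5, described above, rose most. Wnt2b, a ligand, rose by 0.89 (SE 0.21, adjusted p 0.0145), Sfrp2, a secreted frizzled-related inhibitor, by 0.84 (SE 0.15, adjusted p 0.00208), and Nkd1, an intracellular inhibitor and target, by 0.8 (SE 0.22, adjusted p 0.0463). Rnf43, which removes frizzled receptors and falls outside the rule for named genes, rose by 0.79 (adjusted p 0.0134), a call lost without replicate 3 at 11.5 dpc or replicate 1 at 12.5 dpc (0.67 to 0.77, adjusted p 0.0609 to 0.0963). The group thus joined a receptor, a ligand and 3 negative regulators. The Wnt2b call was lost without replicate 1 or 3 at 11.5 dpc and without replicate 1 or 2 at 12.5 dpc (0.69 to 0.86, adjusted p 0.061 to 0.116). The Nkd1 call was lost without replicate 2 or 3 at 11.5 dpc and without replicate 1 or 2 at 12.5 dpc (0.65 to 0.76, adjusted p 0.154 to 0.245), and also with centred arrays, quantile normalization or aligned row sets.

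Activin and TGF-beta genes gave 3 rises among 18 measured members, 0 falls and a median of 0.19, and 3 rises and 2 falls with aligned row sets. Fst has been given. Fstl1, a follistatin-like secreted protein, rose by 1.01 (SE 0.23, adjusted p 0.0132) and Tgfb3, a TGF-beta ligand, by 0.99 (SE 0.24, adjusted p 0.0214). Without replicate 1 of either stage Fstl1 was not called (0.88 to 0.95, adjusted p 0.0661 to 0.0919). Tgfb3 was called only in the fit without replicate 1 at 12.5 dpc, and its adjusted p was 0.0565 to 0.0794 in the other 5. It also missed the threshold with centred arrays and quantile normalization.

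Of all genes 3.5% were called, and among 18 FGF genes the receptor gene Fgfr2 alone passed, with a rise of 0.69 (SE 0.17, adjusted p 0.0204). That call held only without replicate 3 at 12.5 dpc; in the other 5 fits that left out 1 array it was lost (0.54 to 0.71, adjusted p 0.0588 to 0.138), as it was after quantile normalization. None of 19 Notch genes passed in limma with the deposited values, where 2 had an unadjusted p under 0.05 (13.5% of all genes did) and the list's median was 0.11, and 2 were lower with aligned row sets.

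Of 17 hedgehog and PDGF genes 2 were higher and 2 lower with the deposited values, against 1 higher and 4 lower with aligned row sets. Gli3, a transcription factor of the hedgehog pathway, rose by 0.66 and Boc, a hedgehog co-receptor, by 0.62. Pdgfra, a receptor of stromal progenitors, read 7.72, 8.15 and 7.66 and then 6.89, 7.03 and 6.53, and fell by 1.03 (SE 0.2, adjusted p 0.00312). Its ligand gene Pdgfc fell by 1.16 (SE 0.26, adjusted p 0.0111). Both falls left the stages apart. Gli3 was not called without replicate 1 or 3 at 11.5 dpc or replicate 1 at 12.5 dpc (0.49 to 0.65, adjusted p 0.123 to 0.238), nor with aligned row sets, centred arrays or quantile normalization. Boc was lost without replicate 1 or 3 at 11.5 dpc or replicate 1 or 2 at 12.5 dpc (0.54 to 0.6, adjusted p 0.0711 to 0.0865) and after quantile normalization, and Pdgfc without replicate 2 at 11.5 dpc or replicate 1 at 12.5 dpc (a difference of -1.12 to -0.95, adjusted p 0.0542 to 0.0831).

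Retinoic acid is made from retinol by retinol and retinaldehyde dehydrogenases, taken up as retinol through STRA6 and degraded by CYP26 enzymes. It has been described as a signal for the entry of ovarian germ cells into meiosis. Of 18 measured genes 4 rose and 0 fell, with a median of 0.15. Aldh1a1, a retinaldehyde dehydrogenase, read 7.44, 7.48 and 7.55 and then 10.03, 9.27 and 9.46, a rise of 2.1 (SE 0.18, adjusted p 1.32e-07). Its relative Aldh1a2 read 8.27, 8.1 and 8.53 and then 9.98, 10.39 and 9.74, a rise of 1.74 (SE 0.22, adjusted p 2.23e-05). For both enzymes the XX arrays of the stages did not overlap. At 11.5 and 12.5 dpc the XY means of Aldh1a1 were 10.17 and 11.23, above the XX means of 7.49 and 9.59. Those of Aldh1a2 were 8.02 and 8.93, below the XX means of 8.3 and 10.04.

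Stra6, the retinol transporter gene, read 7.4, 7.51 and 7.43 and then 8.69, 8.59 and 8.17, a rise of 1.04 (SE 0.17, adjusted p 0.000445). Rxra, a retinoid X receptor gene, rose by 0.73 (SE 0.17, adjusted p 0.0129), a call lost without replicate 1 at 11.5 dpc or replicate 2 at 12.5 dpc (0.66 to 0.72, adjusted p 0.0504 to 0.0703). Cyp26b1, which degrades retinoic acid in the testis, differed by -0.59 and Rdh10, a retinol dehydrogenase gene, by 0.53, and neither passed.

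Genes of the Sertoli course were examined as the alternative fate. Of 22 measured members 0 rose and 2 fell, with a median of 0.03. Gadd45g, a stress-kinase activator needed for timely Sry expression, read 9.89, 9.3 and 9.7 and then 7.67, 7.92 and 8.18, and fell by 1.7 (SE 0.19, adjusted p 4.8e-06) with no overlap. Dmrt1, a transcription factor of the male pathway that XX gonads also express, fell by 0.67 (SE 0.18, adjusted p 0.041). The Dmrt1 call was lost without replicate 1 or 3 of either stage (-0.67 to -0.51, adjusted p 0.112 to 0.204). Sox9 differed by 0.31 (adjusted p 0.44), Amh by 0.09, Fgf9 by -0.09 and Dhh by 0.24. Sox9 read 8.47, 8.2 and 8.7 and then 8.7, 8.89 and 8.71, against 11.34 to 11.84 in XY cells of the same stages.

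Transcription factors of the bipotential gonad, from which both fates arise, mostly missed the threshold. Of 18 measured genes 0 rose and 1 fell, with a median of -0.05, while 2.77% of all genes were higher and 0.722% lower. The exception was Zfpm2, the GATA4 cofactor FOG2, which read 8.6, 9.03 and 8.64 and then 8.01, 8.28 and 7.34 and fell by 0.88 (SE 0.2, adjusted p 0.0119). Its call was lost without replicate 2 at 11.5 dpc or replicate 3 at 12.5 dpc (-0.74 to -0.61, adjusted p 0.0517 to 0.0893). Wt1 differed by -0.14, Gata4 by -0.28, Nr5a1 by -0.14, Lhx9 by -0.3, Emx2 by 0.06 and Nr0b1 by -0.36, none of which passed. Wt1 read 11.59, 11.66 and 11.6 and then 11.68, 11.38 and 11.37, and Gata4 10.11, 10.28 and 10.48 and then 10.07, 10.21 and 9.74, so these defining factors of gonadal somatic cells stayed high in all 6 arrays.

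**Figure D3:**
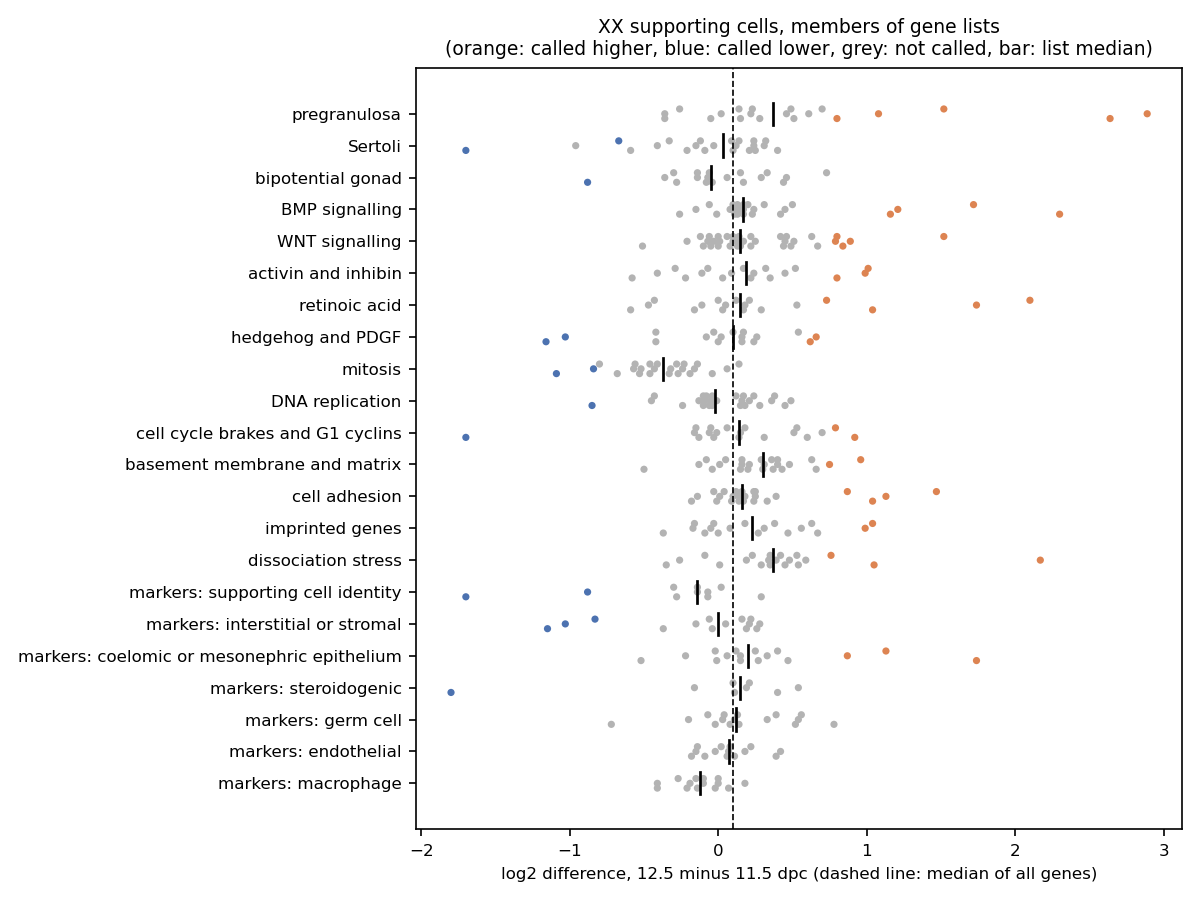
Each row is a gene list and each point a measured member, with its log2 difference, 12.5 minus 11.5 dpc, on the horizontal axis; orange points passed as higher, blue as lower and grey did not pass. Black bars are list medians and the dashed line the median of all genes, 0.102; the mitosis list has 22 of 24 points below 0, while in the pregranulosa, BMP and retinoic acid lists a few points stand far to the right of the rest.

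Genes of mitosis had small negative differences for the most part. Of 24 measured members 22 had a negative difference and the median was -0.37, but only 2 passed and 0 rose. With the row sets aligned the median was -0.44 and 4 passed as lower. Cenpe, a kinetochore motor, read 7.34, 7.29 and 7.74 and then 6.84, 6.26 and 5.99, and fell by 1.09 (SE 0.2, adjusted p 0.00232). Birc5, the chromosomal passenger protein survivin, fell by 0.84 (SE 0.21, adjusted p 0.0226), a call lost without replicate 1 or 2 at 11.5 dpc or replicate 3 at 12.5 dpc (-0.8 to -0.55, adjusted p 0.0856 to 0.0953). Top2a differed by -0.8, Ndc80 by -0.68 and Mki67 by -0.56, short of the threshold. The summed level of the list was 12.14 to 12.28 at 11.5 dpc and 11.44 to 12.17 at 12.5 dpc on the log2 scale, so the stages touched. In pooled cells, fewer dividing cells and less of these RNAs per cell cannot be told apart, and the same holds for every gene list here.

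DNA replication genes had a median of -0.02 over 26 members, with 0 higher and 1 lower, against 2.77% higher and 0.722% lower among all genes. The single call was Orc1, of the origin recognition complex, at 10.24, 10.44 and 10.45 and then 9.4, 9.9 and 9.3, a fall of 0.85 (SE 0.23, adjusted p 0.0419) that held only without replicate 2 at 12.5 dpc among the fits that left out 1 array (adjusted p 0.0742 to 0.17 in the others). Among 19 brakes of the cell cycle and cyclins of its first phase, 2 rose and 1 fell, the last being Gadd45g. Ccnd2, cyclin D2, rose by 0.79 (SE 0.17, adjusted p 0.00768), lost without replicate 1 at 12.5 dpc (0.61, adjusted p 0.0667). Ccnd1, cyclin D1, rose by 0.92 (SE 0.24, adjusted p 0.0359); its call held only without replicate 1 at 11.5 dpc (adjusted p 0.053 to 0.21 in the other 5 fits) and was lost with centred, quantile normalized or aligned values.

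Cell contact genes rose at several points. Of 24 measured adhesion and junction genes 4 rose and 0 fell, with a median of 0.16. Cdh2, N-cadherin, read 7.53, 7.81 and 7.73 and then 9.58, 9.0 and 8.9, a rise of 1.47 (SE 0.18, adjusted p 1.3e-05). Krt8, a keratin of simple epithelia, read 9.24, 9.41 and 9.25 and then 10.28, 10.73 and 10.27, a rise of 1.13 (SE 0.18, adjusted p 0.000379). Tjp1, the tight junction scaffold ZO-1, rose by 1.04 (SE 0.2, adjusted p 0.00329). For these 3 genes, and for Krt18 below, the stages did not overlap. Krt18, the partner keratin of Krt8, rose by 0.87 (SE 0.2, adjusted p 0.0124), lost without replicate 2 at 11.5 dpc or replicate 1 or 2 at 12.5 dpc (0.74 to 0.82, adjusted p 0.0605 to 0.0863) and after quantile normalization.

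Basement membrane and matrix genes had a median of 0.3 over 24 members, with 2 higher and 0 lower, and 4 higher with aligned row sets. Lama1, the laminin alpha-1 chain, read 7.12, 7.06 and 6.99 and then 8.46, 7.89 and 7.69, a rise of 0.96 (SE 0.17, adjusted p 0.00173). Lama4, another laminin alpha chain, rose by 0.75 (SE 0.19, adjusted p 0.0278), a call lost without replicate 2 or 3 at 11.5 dpc or replicate 1 or 3 at 12.5 dpc (0.64 to 0.73, adjusted p 0.0768 to 0.137) and with centred arrays. No collagen of the list passed, with Col4a1 at 0.15, Col4a2 at 0.01 and Col1a1 at 0.05, and the lowest member was fibronectin, Fn1, at -0.5.

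Metabolic and positional lists held few calls. Cholesterol synthesis genes numbered 17, of which Idi1 alone fell, at 9.56, 9.58 and 9.57 and then 6.84, 8.06 and 7.24, while its list median was 0.09. Steroid synthesis genes numbered 9, of which Cyp11a1, the side-chain cleavage enzyme, fell from 7.73, 8.57 and 7.16 to 6.24, 5.76 and 6.07, by 1.8 on the log2 scale (SE 0.25, adjusted p 0.000101). Star, the cholesterol carrier of steroid cells, differed by 0.1. Among 18 imprinted genes Nnat, neuronatin, rose by 1.04 (SE 0.15, adjusted p 0.000146) and Sgce, epsilon-sarcoglycan, by 0.99 (SE 0.19, adjusted p 0.00238), with 0 lower (3 higher and 1 lower with aligned row sets) and a median of 0.23.

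Lists without any call in limma were glycolysis (15 genes, median 0.04), Hox genes (23, median 0.01) and germ cell niche factors (13, median 0.15). At an unadjusted p under 0.05, met by 13.5% of all genes, they held 1, 1 and 3 genes. With aligned row sets 1 glycolysis gene and 1 niche gene were lower and 0 Hox genes were called. Kitl, the KIT ligand that supports germ cells, read 11.08, 11.08 and 11.2 and then 11.51, 11.26 and 11.47, a difference of 0.29 (SE 0.17, adjusted p 0.495).

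Immediate-early and heat shock genes, which cell dissociation can induce, had a median of 0.37 over 20 members, with 3 higher and 0 lower. Egr2, a zinc-finger factor, read 7.88, 7.81 and 8.05 and then 11.28, 9.39 and 9.57, a rise of 2.17 (SE 0.36, adjusted p 0.000757). Egr1 rose by 1.05 (SE 0.23, adjusted p 0.00843) and Ier2 by 0.76 (SE 0.18, adjusted p 0.02). Fos, the best-known member, read 7.97, 7.91 and 8.34 and then 9.01, 8.54 and 8.45, and missed the threshold at 0.59 (SE 0.17, adjusted p 0.0653). It passed without replicate 3 of either stage (0.7 to 0.73, adjusted p 0.0314 to 0.0474). Egr1 was lost without replicate 2 at 11.5 dpc or replicate 1 at 12.5 dpc (0.84 to 0.9, adjusted p 0.0664 to 0.0714), and Ier2 held only without replicate 3 at 12.5 dpc (adjusted p 0.0567 to 0.108 in the other 5 fits). The heat shock gene Hspa1a differed by -0.35. The summed level of the list was 13.55 to 13.93 at 11.5 dpc and 13.77 to 14.17 at 12.5 dpc, and its part in the other results was not tested.

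The Egr2 promoter window (RefSeq, GRCm38.p6, chr10:67537316-67537615, plus strand) is shown with a CArG box, the sequence bound by serum response factor, in capitals. Both strands were searched, and 4 of the 5 Egr2 windows in the table held such a box, against 535 of 32851 windows (1.63%) of all genes. Egr1 and Ier2 had no entry, and the 1 window of Fos held no such box. The Egr2 windows all belong to 1 gene, and the match was not read as a site.
Egr2: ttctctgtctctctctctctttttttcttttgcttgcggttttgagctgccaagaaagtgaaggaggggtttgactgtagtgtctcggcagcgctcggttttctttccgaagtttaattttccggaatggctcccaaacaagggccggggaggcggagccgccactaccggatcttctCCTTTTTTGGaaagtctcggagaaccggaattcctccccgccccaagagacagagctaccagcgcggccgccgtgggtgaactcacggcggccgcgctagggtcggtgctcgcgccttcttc

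Markers of other cells that the gate could hold were set beside these results. Interstitial or stromal markers numbered 14, of which Nr2f1, Nr2f2 and Pdgfra fell and 0 rose, with a median of 0.0. Nr2f2, the orphan receptor COUP-TFII, read 9.52, 9.41 and 9.63 and then 8.83, 8.85 and 8.4, and fell by 0.83 (SE 0.16, adjusted p 0.0037), and Nr2f1 fell by 1.15 (SE 0.23, adjusted p 0.00408). The summed stromal level was 11.45 to 11.6 at 11.5 dpc and 10.99 to 11.44 at 12.5 dpc. Coelomic or mesonephric epithelium markers numbered 16, of which Aldh1a2, Krt8 and Krt18 rose, and their summed level was 11.59 to 11.65 and then 12.12 to 12.64. The more restricted epithelial markers did not pass, with Upk3b at 6.75, 6.69 and 6.84 and then 7.18, 6.92 and 6.63, and Krt19 at a difference of 0.33. Aldh1a2, Krt8 and Krt18 also stand in the retinoic acid and adhesion lists above, and the part of a change in cell mixture in their rise was not tested.

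Steroidogenic markers numbered 8 with 1 fall, Cyp11a1, and a summed level of 10.93 to 11.11 and then 10.81 to 11.12. None of 16 germ cell, 14 endothelial, 14 macrophage, 9 mural or 8 erythroid markers was called in limma. At an unadjusted p under 0.05, met by 13.5% of all genes, there were 3, 1, 2, 2 and 1 of them, and with aligned row sets 1 germ cell and 1 macrophage marker were lower. Ddx4, a germ cell helicase, read 5.18, 5.08 and 4.82 and then 6.56, 4.84 and 5.25, and Dazl 4.72, 4.71 and 4.61 and then 6.69, 4.73 and 4.96, so replicate 1 at 12.5 dpc stood above the rest in both. Pou5f1 and Pecam1 differed by 0.14 and 0.11. The embryonic globin Hbb-y read 7.4, 7.63 and 7.81 and then 10.84, 5.48 and 9.53, and the summed erythroid level was 9.71 to 9.75 and then 9.53 to 11.29. Supporting cell identity genes numbered 10, with 0 higher, 2 lower (Gadd45g and Zfpm2), a median of -0.14 and a summed level of 13.7 to 13.74 and then 13.52 to 13.71.

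The step from 11.5 to 12.5 dpc was then set beside the next one in the same line, from 12.5 to 13.5 dpc. That step had 100 genes called (0.502%), 25 higher (0.125%) and 75 lower (0.376%), and the split was 69 higher and 55 lower with aligned row sets and 47 higher and 38 lower with centred arrays. Both steps use the 12.5 dpc arrays, so their gene sets were not intersected. Instead the first step minus the second was tested for each gene, and it differed for 127 genes (0.637%), 114 in the positive (0.572%) and 13 in the negative direction (0.0652%). The median of this quantity over all genes was 0.240 with the deposited values and 0.011 with aligned row sets, under which 85 were positive and 25 negative. The counts rested on single arrays. Without replicate 3 at 12.5 dpc they were 154 for the second step and 431 for the difference, and without replicate 2 at 12.5 dpc 48 and 44. The second-step count was 60, 32 and 66 without replicate 1, 2 or 3 at 13.5 dpc, and the count for the difference was 58 without replicate 1 at 12.5 dpc and 69 without replicate 2 at 13.5 dpc.

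Egfl6 had the largest step difference among the genes that changed at 12.5 dpc, 4.31 (SE 0.29, adjusted p 1.35e-08). Its 13.5 dpc levels were 10.29, 10.08 and 10.1, a second step of -0.26 (adjusted p 0.551). Lrrn1 (2.92), Akr1c14 (2.67) and Bmp5 (2.83) also had steps that differed, with second steps of 0.16, 0.22 and -0.53. The same was seen for Nexn, an actin-binding protein, and Pam, the peptide-amidating enzyme, both at 2.74, and for Mpped2 at 2.72, a predicted phosphoesterase. Bmp5 and Id3 (2.01, adjusted p 0.00122) thus had a larger first step and read 9.51 to 9.72 and 9.18 to 9.45 at 13.5 dpc. Of the other listed genes, Cdh2 (1.79, adjusted p 0.00467), Krt8 (1.62, adjusted p 0.0115), Stra6 (1.43, adjusted p 0.0178), Nnat (1.33, adjusted p 0.0147) and Aldh1a2 (1.69, adjusted p 0.038) had a larger first step. All genes of this paragraph were already called in the first step, which the tested difference contains. That choice favours a larger first step, so these p-values are no independent support for it.

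Ube2l6, an ISG15-conjugating enzyme, rose and then fell. It read 6.48, 6.99 and 6.54, then 8.47, 7.48 and 8.49, then 6.98, 7.08 and 6.94, with a first step of 1.48 (adjusted p 0.000102) and a second of -1.15 (adjusted p 0.00978). Lclat1, a lysocardiolipin acyltransferase, did the opposite, at 8.77, 9.02 and 8.74, then 8.35, 7.32 and 7.7, then 8.97, 8.7 and 8.67, with a first step of -1.05 (adjusted p 0.00418) and a second of 0.99 (adjusted p 0.0317). Among falls, Pcdh20 (-2.63), Robo1 (-2.25) and AW551984 (-1.85) had step differences past the threshold, and second steps of -0.26, -0.18 and -0.48 that did not pass.

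Calb1, H2bc4, Gem and Lpl were lower at 12.5 dpc and had second steps of 0.9, 0.91, 0.8 and 0.35 that did not pass. Their step differences were -2.79 for the calcium buffer calbindin, -2.52 for the histone gene, -1.78 for the GTPase gene Gem and -1.55 for lipoprotein lipase. The first-step fall of Gem, 0.97 on the log2 scale, was lost without replicate 1 or 3 at 11.5 dpc or replicate 2 or 3 at 12.5 dpc (-0.91 to -0.85, adjusted p 0.0524 to 0.112).

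Other genes went on changing. Pnliprp2 dropped by a further 2.95 (adjusted p 0.000109) to 6.74, 6.47 and 6.56, and its steps did not differ past the threshold (0.42, SE 0.62). Tgm3 fell by another 1.35 (adjusted p 0.000851), Orc1 by 1.7 (adjusted p 0.000472), while Aldh1a1 rose by a further 0.86 (adjusted p 0.0317) to 10.54, 10.41 and 10.39. Foxl2os stood at 11.24, 11.0 and 10.99 at 13.5 dpc, a second step of 0.67 with an adjusted p of 0.0725. The mitosis list had a second-step median of -0.39, against -0.127 for all genes.

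**Figure D4:**
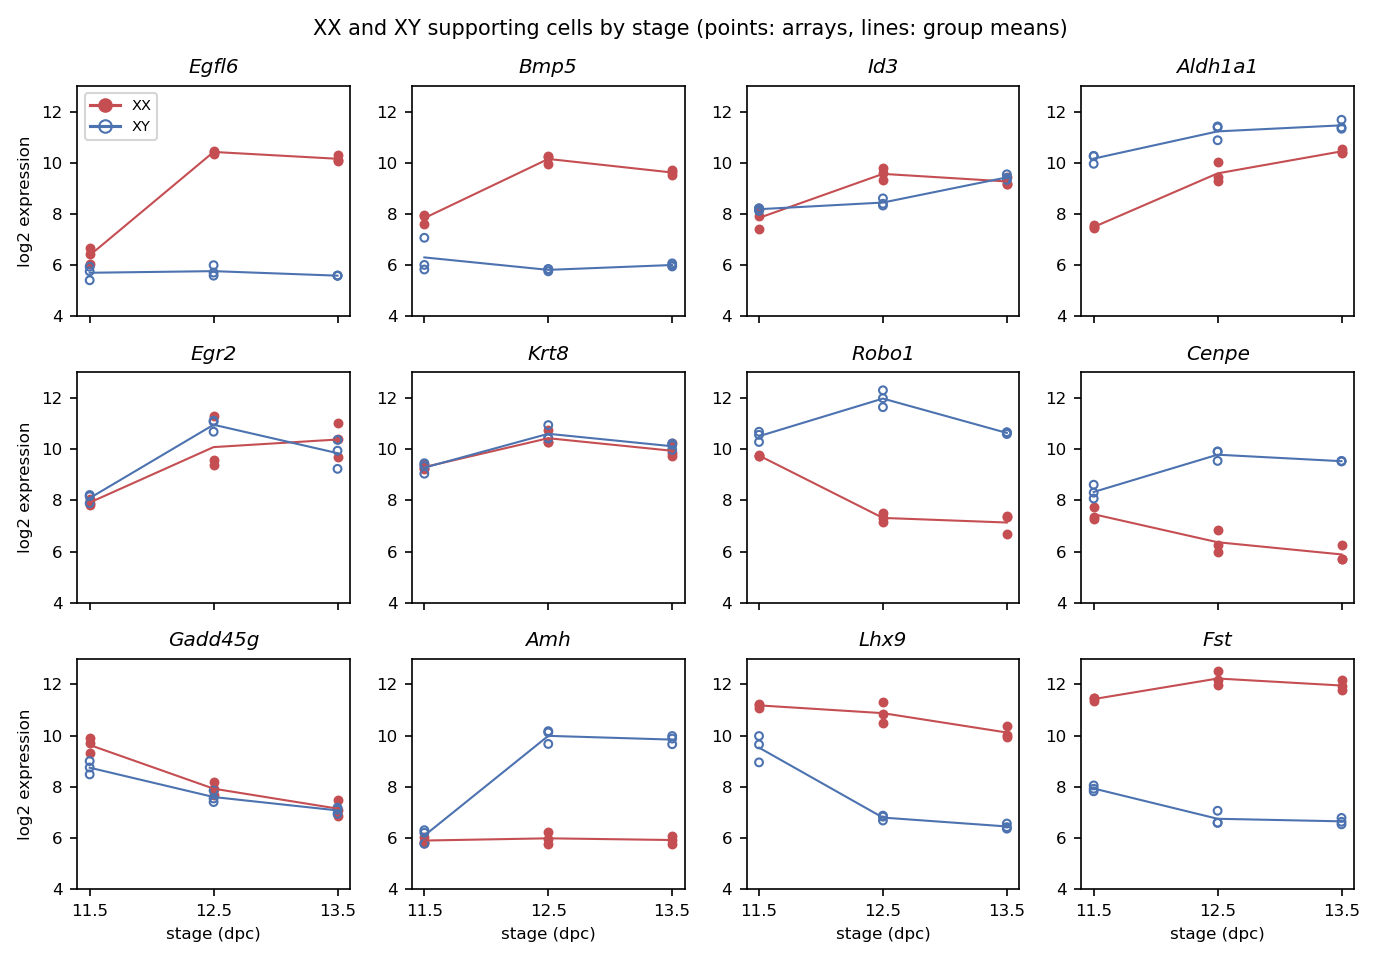
Log2 expression of 12 genes is plotted against stage in dpc, with filled red points for XX arrays, open blue points for XY arrays and lines through group means of 3 arrays. In XX cells Egfl6 goes from 6.03 to 6.69 at 11.5 dpc to 10.35 to 10.48 at 12.5 dpc while XY arrays stay at 6.0 or below at both stages, and Robo1 falls in XX and stands at 11.64 to 12.3 in XY at 12.5 dpc.

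The XX change was finally set against the XY change between the same stages, with the limit that the XY arrays change line and strain at 12.5 dpc. The changes differed for 989 genes (4.96%), 294 in the direction of a higher XX change (1.47%) and 695 in that of a lower one (3.49%). The split moved to 468 against 459 after quantile normalization and 403 against 513 with centred arrays. Egfl6 led the first group at 3.98 (SE 0.24, adjusted p 5.49e-10), with XY levels of 5.94, 5.41 and 5.76 and then 6.0, 5.71 and 5.59. Calcrl differed by 3.16, and both genes rose in XX cells.

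For other genes of that group the XY level was lower at 12.5 than at 11.5 dpc. Dock4, a guanine nucleotide exchange factor, read 11.53, 11.59 and 11.5 and then 11.34, 11.53 and 11.19 in XX, against XY means of 10.75 and 6.85, a difference of 3.71. Sulf1, a heparan sulfate endosulfatase, differed by 3.59, Ifitm3, an interferon-induced membrane protein, by 3.36, the matrix genes Hmcn1 and Col12a1 by 3.33 and 3.18, and the small nucleolar RNA Snora75 by 3.34. In XX cells Sulf1, Ifitm3, Hmcn1 and Col12a1 did not pass (0.4, 0.1, 0.83 and 0.91). Col12a1 missed the threshold at an adjusted p of 0.0525 and passed without replicate 3 at 12.5 dpc (1.13, adjusted p 0.0218). Snora75 rose by 1.65 (adjusted p 0.0273) with overlapping arrays, a call lost without replicate 1 or 3 at 11.5 dpc or replicate 2 or 3 at 12.5 dpc (0.96 to 1.7, adjusted p 0.0507 to 0.212) and under all 3 other scalings.

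In the opposite direction stood genes of Sertoli cells and of division. Amh, the anti-Mullerian hormone, read 5.85, 5.79 and 6.05 and then 6.23, 5.96 and 5.76 in XX cells and went from a mean of 6.09 to 9.99 in XY, a difference of -3.81 (SE 0.25, adjusted p 1.59e-09). Hsd17b3, an androgen-forming enzyme of fetal Sertoli cells, differed by -4.5, Cstdc1 by -3.88, Tnnc1, a troponin C, by -3.39 and H2bc4 by -4.0. Robo1 differed by -3.9, with XY means of 10.51 and 11.98. Kif15, a mitotic kinesin, fell by 1.2 (adjusted p 0.00722) in XX cells and had an XY mean of 7.54 and then 9.76, a difference of -3.43, and Sel1l3 differed by -3.34.

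Over all genes 1.47% passed in the higher XX direction and 3.49% in the lower, and the list counts here are to be read against these shares. In the mitosis list 22 of 24 members passed in the lower XX direction and 0 in the higher, and the median was -2.17, against -0.104 for all genes. Cenpe in XY cells read 8.07, 8.61 and 8.3 and then 9.91, 9.54 and 9.9, a difference of -2.55 (SE 0.29, adjusted p 4.54e-06). Of the pregranulosa list 8 of 20 were in the higher XX direction and 0 in the lower, among them Fst (1.98) and Rspo1 (1.35, adjusted p 0.00257), and of the Sertoli list 1 was higher and 11 lower. The 1 Sertoli-list gene in the higher direction was Sry itself (3.12), whose XY mean went from 11.83 to 8.56. Some genes that were not called in XX cells differed in this test, such as Lhx9 (2.43, XY means 9.53 and 6.79) and Emx2 (2.18, XY means 7.82 and 5.7).

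Some XX changes had no counterpart test past the threshold. Krt8 (-0.2, SE 0.25), Egr2 (-0.7, SE 0.52), Gadd45g (-0.56, SE 0.27), Nr2f2 (0.4, SE 0.23), Tgm3 (0.65, SE 0.27), Pcdh11x (-0.17, SE 0.37) and AW551984 (0.02, SE 0.26) changed in XX cells, and their XX minus XY difference was not called. A p above the threshold does not show that the sexes changed alike.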

How the data were processed

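Supporting cells were sorted from pooled fetal gonads, and labelled cDNA from their RNA was measured on Affymetrix Mouse Gene 1.0 ST arrays, 3 arrays in each of 12 groups, 36 in all. The authors deposited log2 expression values per probe set, for which the submitters' processing notes name RMA without a version. That method subtracts a modelled background, equalises the arrays and combines the probes of a set, so values have no true zero and differences of dim genes are compressed. Values of 35557 probe sets ran from 3.17 to 15.05. The number of arrays limits the precision. Nothing in the labels ties the 3 arrays of a group to separate litters or pools, and p-values therefore reflect only how far these samples spread, which may be technical. Scan dates and slides were not used here.

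Of the probe sets, 21789 had 1 gene symbol in the GEO platform annotation, 1621 had several and 12147 were unnamed here; the latter 2 kinds were left out. The gene table (GRCm38.p6) matched 21698 identifiers. For 999 genes with several probe sets the brightest stood for the gene, which left 19938 genes. In 35 arrays the table rows formed 3 interleaved sets on separate linear scales, and in 1 array 2 sets; no label explains them. Deposited values were kept, and aligning the sets was an alternative.

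The 18 supporting cell arrays (6 groups, 12 residual degrees of freedom) were fitted with limma 3.58.1 in R 4.3.3 (lmFit, eBayes, no covariate). Contrasts were 12.5 minus 11.5 dpc in XX cells, 13.5 minus 12.5 dpc in XX cells, the difference of these steps, and the XX minus XY change from 11.5 to 12.5 dpc. Two-sided p-values were adjusted (Benjamini-Hochberg, all genes of a contrast) and called under 0.05. Standard errors (SE) are limma's moderated ones, and no dim genes were filtered. The script was tested on simulated data. Tables and plots used Python 3.11.15, numpy 2.4.6, pandas 2.3.3 and matplotlib 3.10.9.

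Named genes were the 12 largest rises and falls among called genes with arrays that did not overlap, without model names; the called members of 33 gene lists, up to 4 a direction; key gonadal genes whatever their values; and the 8 largest genes a direction by the difference of steps (among genes called at 12.5 dpc) and by the XX minus XY change. Summed levels of a list are the log2 of the sum of its unlogged values. The samples, gene lists and named genes were chosen with earlier results of these data known. Promoter windows of 300 bases around a start came from RefSeq (GRCm38.p6), and motifs were searched on both strands.

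Alternatives were other sets of arrays in the fit, array weights, centring, quantile normalization, aligned row sets, a filter at a mean of 7, averaged probe sets, a replicate block, and leaving out each array.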

Additional observations from a re-analysis of the deposited data

Results flagged for a closer look

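In XX supporting cells, genes stood out because their change from 11.5 to 12.5 dpc differed from their change from 12.5 to 13.5 dpc by limma's test of that difference (adjusted p under 0.05). Among genes called at 12.5 dpc, the largest positive values, in log2, were 4.31 for Egfl6, 2.92 for Lrrn1, 2.83 for Bmp5, 2.74 for both Pam and Nexn, 2.72 for Mpped2, 2.67 for Akr1c14 and 2.63 for Ube2l6. The largest negative values were -2.79 for Calb1, -2.63 for Pcdh20, -2.52 for H2bc4, -2.25 for Robo1, -2.04 for Lclat1, -1.85 for AW551984, -1.78 for Gem and -1.55 for Lpl. The first-step call of Gem was lost without replicate 1 or 3 at 11.5 dpc or replicate 2 or 3 at 12.5 dpc (-0.91 to -0.85). The choice of genes by a call in the first step, which the tested difference contains, favours a larger first step.

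Other genes stood out because their change from 11.5 to 12.5 dpc differed between XX and XY cells in the same kind of test. XX minus XY, the positive values were 3.98 for Egfl6, 3.71 for Dock4, 3.59 for Sulf1, 3.36 for Ifitm3, 3.34 for Snora75, 3.33 for Hmcn1, 3.18 for Col12a1 and 3.16 for Calcrl. The negative values were -4.5 for Hsd17b3, -4.0 for H2bc4, -3.9 for Robo1, -3.88 for Cstdc1, -3.81 for Amh, -3.43 for Kif15, -3.39 for Tnnc1 and -3.34 for Sel1l3. On the XY side stage, reporter line and strain cannot be told apart.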

How the results depend on the processing

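The 12.5 minus 11.5 dpc count of 697 genes was 295 with all 36 arrays in the fit and 404 with only the 6 arrays compared, and 430 to 1222 with 1 array left out. For 13.5 minus 12.5 dpc (100 genes) it was 20 with all 36 arrays, and 32 to 154 with 1 array left out. For the difference of the steps (127 genes) it was 20 with all 36 arrays, 56 with array weights, 64 with centred arrays and 53 after quantile normalization, and 44 to 431 with 1 array left out. For the XX minus XY change (989 genes) it was 454 with all 36 arrays and 1500 with aligned row sets, and 725 to 1265 with 1 array left out. Row sets aligned together with another choice were added after seeing the data. They gave 9 genes for the second step with only the arrays compared, and for the difference of the steps 72 with all 36 arrays, 31 with only the arrays compared and 42 without replicate 2 at 12.5 dpc. The cause of these moves was not tested.

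Of 78 named genes called at 12.5 dpc, 46 were called in every alternative that tested them, those added after seeing the data aside, and 56 in all 6 fits that left out 1 array. Over their 1549 alternative values, 1353 kept direction and call, 196 lost the call and 0 reversed; over 688 values of the 35 named genes that were not called, 19 gained it. Among those 56, Fst, Nnat, Pdgfra, Nr2f2, Sgce, Sfrp2, H2bc4 and Lclat1 lost the call with all 36 arrays in the fit, Sgce, H2bc4, Lclat1 and Irx3 with only the 6 arrays compared, Nr2f2 and Sfrp2 with 35 arrays (without the germ cell array), and Kif15 with array weights. Of 1320 list counts, 168 moved.

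No label says whether the shared replicate numbers pair the samples. Deviations of same-numbered 11.5 and 12.5 dpc arrays from their group means correlated at -0.022, -0.04 and -0.04. Those of arrays with other numbers correlated at -0.009 to 0.044. With means of 3 arrays these values do not decide whether samples were paired. With the replicate block the counts were 718, 107, 124 and 974 in the order above. Small log2 differences hold only up to the row sets, and dim probe sets such as that of Foxl2 limit what could be seen.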
